A study of Mus musculus with 17 samples.

Results

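Npas4, Npas1, Npas2, Npas3, Arnt and Arnt2 were examined as a family, chosen by name as the neuronal activity gene Npas4, the 3 further neuronal PAS domain genes and the general partners Arnt and Arnt2. They were 6 of the 55471 genes in the count table, and all 6 had counts in each of the 17 libraries. Total RNA from the hippocampus of male mice aged 3 to 6 months was sequenced, with 1 mouse in each library. CBP-ifKO mice carried a floxed Crebbp gene and the Camk2a-creERT2 transgene, a Cre recombinase driven in excitatory neurons of the forebrain and switched on with tamoxifen, so that the lysine acetyltransferase CBP was truncated in those cells of the adult and was left intact in the others. Controls were floxed littermates given tamoxifen which, according to the methods of the study, lacked creERT2, although the descriptions of the control samples also name the transgene.

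Each genotype had 3 treatments. Sal mice received saline and were not kindled. PTZ0 mice were kindled with pentylenetetrazole (PTZ), which provokes seizures by blocking inhibitory GABA-A receptors, at 45 mg/kg, and received saline in the final session. In the study the final session came a week after kindling. PTZ45 mice were kindled in the same way and received PTZ at 45 mg/kg in the final session. According to the study, all controls came to have seizures during kindling, whereas no CBP-ifKO mouse reached the stage of progressive seizures. Kindled here therefore means that the series of injections was given. Hippocampi of PTZ0 and PTZ45 mice were taken 45 min after that injection. There were 3 libraries in every group except Control PTZ45, which had 2.

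The proteins of this family share a basic helix-loop-helix, which binds DNA, and PAS domains, through which they pair. Npas4 is an immediate early gene of neurons, transcribed after calcium entry through L-type channels, and its product pairs with Arnt or Arnt2 to drive genes that adjust the inhibitory and excitatory synapses of the activated cell. Arnt and Arnt2 are not made on demand and serve many partners, including the hypoxia and dioxin sensors, and Arnt2 is the form enriched in neurons. Npas2 is a paralog of Clock that pairs with the product of Arntl, Npas1 is a repressor found in subsets of interneurons, and Npas3 acts in neural development and in adult neurogenesis.

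The libraries held between 5831992 and 18735643 counts. Crebbp, the targeted gene, was lower in every CBP-ifKO library (1061 to 1337 normalized counts) than in every control library (1824 to 2429). Its counts cover the whole gene, and cells outside the reach of the Cre driver also contribute to them. Defining markers of excitatory neurons, interneurons, astrocytes, the oligodendrocyte lineage, microglia and endothelial cells were detected in each group. Choroid plexus markers summed to over 5000 normalized counts in 5 libraries, 1 in every group except Control PTZ45, against 420.8 to 1092 in the others. The descriptions carry a lane code, and it runs along the groups. Lane 3 held Control Sal and Control PTZ0, lane 4 held Control PTZ45 and CBP-ifKO Sal, and lane 5 held CBP-ifKO PTZ0 and CBP-ifKO PTZ45.

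All positions are on mouse build GRCm38. Npas4 (ENSMUSG00000045903) lies at chr19:4984355-4990316 on the minus strand, Npas1 (ENSMUSG00000001988) at chr7:16455721-16477728 on the minus strand and Npas2 (ENSMUSG00000026077) at chr1:39193731-39363236 on the plus strand. Npas3 (ENSMUSG00000021010) lies at chr12:53248677-54072175 on the plus strand, Arnt (ENSMUSG00000015522) at chr3:95434388-95497240 on the plus strand and Arnt2 (ENSMUSG00000015709) at chr7:84246278-84410176 on the minus strand. All 6 code for protein. Exons of Npas3 share 83 bases with the antisense gene 1700060O08Rik and exons of Arnt2 share 214 bases with the antisense gene Gm30873, and the use of strand in counting is not given in the sources used here, so reads of these stretches cannot be assigned to either strand.

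Promoter sequence of Npas4, Arnt and Arnt2 is shown because these are the genes whose levels the results turn on. Each lies within the 250 bases before the start site in RefSeq (assembly GRCm38.p6), at chr19:4990131-4990155 (minus strand), chr3:95434140-95434387 (plus strand) and chr7:84410177-84410288 (minus strand). GENCODE places exons of longer transcripts over all 250 of these bases in Npas4, 138 in Arnt2 and 2 in Arnt, so the RefSeq start is not the only annotated one. The exonic bases of Arnt and Arnt2 were left out, and for Npas4 only the 25 bases around the matches are shown. Capitals mark matches, on both strands, to the cAMP response element TGACGTCA or its shorter form TGACG, through which CREB recruits CBP.
Npas4: ttcgaCGTCAcgggaTGACGtcgga
Arnt: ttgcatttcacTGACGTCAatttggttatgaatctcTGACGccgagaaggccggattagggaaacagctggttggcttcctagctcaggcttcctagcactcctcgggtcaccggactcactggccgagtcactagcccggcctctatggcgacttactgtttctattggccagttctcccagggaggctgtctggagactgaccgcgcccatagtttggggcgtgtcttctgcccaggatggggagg
Arnt2: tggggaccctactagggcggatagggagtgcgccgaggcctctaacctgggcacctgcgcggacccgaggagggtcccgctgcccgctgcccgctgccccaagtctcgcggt
The window of Npas4 held 2 short forms, 1 on each strand, CGTCA beginning at base -179 and TGACG at base -169 from the start, and no complete element. Arnt held a complete element at base -239, which contains 2 overlapping short forms, and a further short form at base -214. Arnt2 held none. Among 32851 mouse promoter windows of 300 bases, 1.79% held the complete element and 20.8% a short form. The CArG box of serum response factor (CC, then 6 bases of A or T, then GG) was in none of the 6 windows and in 1.63% of all windows, and the E-box CACGTG was in none of the 6 and in 7.15% of all. The general bHLH-PAS core ACGTG, which an E-box contains, was found once each in the windows of Npas2 and Npas3 and in 19.6% of all windows. The core TCGTG, described for Npas4 with its Arnt partners, was found once each in those of Npas1 and Npas2 and in 16% of all. These are matches of letters, and no binding was measured here.

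Npas4 rose with acute PTZ in both genotypes and reached a far lower level in CBP-ifKO mice. Its normalized counts (counts divided by DESeq2 size factors over all libraries) in Control Sal were 28.1, 48.0 and 75.9, and in Control PTZ0 they were 32.5, 66.8 and 46.7. In Control PTZ45 they were 3946 and 3293. The 2 PTZ45 libraries stood above all other control libraries, and Sal and PTZ0 overlapped.

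In CBP-ifKO mice, Npas4 had 34.0, 33.2 and 30.3 normalized counts in Sal and 42.6, 11.5 and 29.96 in PTZ0. In CBP-ifKO PTZ45 it had 109.3, 153.9 and 212.2. Each of these last 3 libraries stood above all Sal and PTZ0 libraries of both genotypes and far below both Control PTZ45 libraries. The plot of Npas4 by library shows this order.

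**Figure D1:**
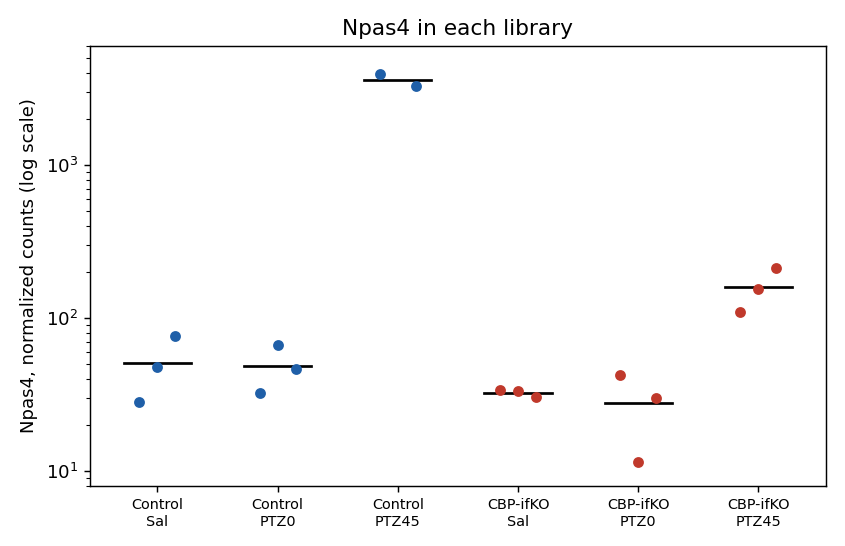
Normalized counts of Npas4 (log axis) in the 17 libraries, by genotype and treatment. Points are libraries, blue for Control and red for CBP-ifKO, and horizontal lines are group means. Control PTZ45 libraries lie at 3293 and 3946, CBP-ifKO PTZ45 libraries between 109.3 and 212.2, and all others below 76.

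In controls, the log2 fold change of Npas4 from Sal to PTZ45 was 6.16 ± 0.50 (SE; 71.4-fold; DESeq2 adjusted p = 8.68e-32, n = 3 and 2). It was the 1 gene of the family called in this comparison, in which 1.17% of genes tested were called. From PTZ0 to PTZ45 the change was 6.23 ± 0.37 (74.9-fold, adjusted p = 5.83e-62), again the 1 call of 6 against 1.25% of genes tested. Both rises kept an adjusted p under 0.05 in each of the 12 alternatives tried. The control PTZ45 libraries were sequenced in another lane than Sal and PTZ0, so lane and treatment cannot be told apart in these comparisons. CBP-ifKO Sal shared that lane with Control PTZ45 and held 30.3 to 34.0 normalized counts of Npas4. It differed from Control PTZ45 in both genotype and treatment, so it does not separate lane from treatment.

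In CBP-ifKO mice, the change from Sal to PTZ45 was 2.28 ± 0.28 on the log2 scale (4.87-fold, adjusted p = 1.11e-12, n = 3 and 3), and Npas4 was 1 of 6 called against 0.294% of genes tested. From PTZ0 to PTZ45, which were in the same lane, it was 2.51 ± 0.55 (5.69-fold, adjusted p = 0.0105), 1 of 6 called against 0.0872% of genes tested. Of 13 alternatives, 4 ended this last call, at a highest adjusted p of 0.283 without CBP-ifKO PTZ45 replicate 2 and 0.275 without CBP-ifKO PTZ0 replicate 3. The log2 change in those alternatives was 2.53 and 2.57. The lowest PTZ0 library rested on 12 reads of Npas4, which limits the precision of this baseline.

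The difference between the genotypes in the rise was tested directly. The genotype by PTZ45 interaction for Npas4 was -3.88 ± 0.57 over Sal (adjusted p = 8.11e-09) and -3.71 ± 0.67 over PTZ0 (adjusted p = 1.85e-05). Both interactions use the same PTZ45 libraries. Npas4 was the 1 gene of the 6 called in either, where 0.329% and 0.423% of genes tested were called, and it kept its call in each of 18 alternatives for both, edgeR included, which called 0.32% and 0.492% of genes tested. In normalized counts, the mean rise over Sal was 3569 in controls and 126 in CBP-ifKO mice, or 3.53% of the control rise. In hippocampal tissue, fewer cells that express a gene and less RNA in each of them cannot be told apart. The genotypes also differed in their seizures during kindling, which cannot be told apart from genotype here.

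Between genotypes after PTZ45, Npas4 was lower in CBP-ifKO mice by a log2 fold change of -4.51 ± 0.35 (22.8-fold, adjusted p = 3.46e-34). The CBP-ifKO PTZ45 libraries were at 4.38% ± 1.43 (SD, n = 3) of the mean of the Control PTZ45 libraries. This difference was called in each of 12 alternatives. The 2 groups were in different lanes.

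Without acute PTZ the levels of Npas4 in the genotypes overlapped. In Sal, the log2 difference between CBP-ifKO and control was -0.64 ± 0.37 (adjusted p = 0.572, 95% interval -1.36 to 0.08). In PTZ0 it was -0.80 ± 0.40 (unadjusted p = 0.0435), and DESeq2 set no adjusted p because the mean count was low, whereas edgeR called it (adjusted p = 0.0307). With the Sal and PTZ0 libraries of both genotypes fitted together, an alternative chosen after seeing the data, the difference was -0.72 (adjusted p = 0.0623). Raw counts of Npas4 in these 12 libraries lay between 12 and 84.

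In PTZ0 against Sal, DESeq2 called 0 of 6 in controls, where 0.00843% of genes tested were called, and 0 of 6 in CBP-ifKO mice, where 0.0112% were called. At these shares a count of 0 does not set the family apart. The count at an unadjusted p under 0.05 was also 0 in both genotypes, beside 207 and 120 genes in the whole table. edgeR called 0 in both, against 0.239% and 0.0588% of genes tested. The 95% interval of the log2 change of Npas4 was -0.74 to 0.61 in controls and -1.07 to 0.61 in CBP-ifKO mice. For Arnt2 it was narrower, -0.13 to 0.14 in controls and -0.14 to 0.19 in CBP-ifKO mice.

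Arnt, the partner shared with the hypoxia and dioxin sensors, was higher in CBP-ifKO mice. It had 548.5, 560.2 and 619.3 normalized counts in Control Sal, 566.2, 596.2 and 621.8 in Control PTZ0, and 604.9 and 634.5 in Control PTZ45. In CBP-ifKO mice it had 710.4, 788.5 and 693.2 in Sal, 746.3, 701.7 and 701.8 in PTZ0, and 751.8, 733.7 and 621.4 in PTZ45. Of the 9 CBP-ifKO libraries, 8 stood above every control library, and the exception was the PTZ45 library at 621.4.

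With all treatments in 1 fit, the log2 difference of Arnt was 0.27 ± 0.05 (1.20-fold, adjusted p = 1.87e-06, n = 8 and 9). The difference by treatment was 0.33 ± 0.11 in Sal (adjusted p = 0.0734), 0.27 ± 0.09 in PTZ0 (adjusted p = 0.0406) and 0.18 ± 0.12 in PTZ45 (adjusted p = 0.674). Of 13 alternatives, 10 ended the PTZ0 call, at adjusted p-values up to 0.350 (without Control PTZ0 replicate 1), among them the omission of any 1 of the 6 libraries, at a log2 difference of 0.23 to 0.30. In Sal, 3 of 13 alternatives made a call, edgeR (adjusted p = 0.0123), 1 fit of all libraries (0.00861) and the omission of CBP-ifKO Sal replicate 3 (0.0453). The difference from Sal to PTZ45 in Arnt was 0.10 ± 0.12 in controls and -0.05 ± 0.11 in CBP-ifKO mice, with no call.

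Arnt2, the partner enriched in neurons, moved the other way. It had 2349, 2515 and 2768 normalized counts in Control Sal, 2658, 2571 and 2427 in Control PTZ0, and 2758 and 2435 in Control PTZ45. In CBP-ifKO mice it had 2093, 2465 and 2102 in Sal, 2338, 2192 and 2217 in PTZ0, and 2105, 2199 and 2047 in PTZ45. Of the 9 CBP-ifKO libraries, 8 lay below every control library, the exception being the Sal library at 2465.

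Over all treatments the log2 difference of Arnt2 was -0.22 ± 0.04 (adjusted p = 1.64e-05). It was -0.21 ± 0.09 in Sal (adjusted p = 0.357), -0.18 ± 0.06 in PTZ0 (adjusted p = 0.0532) and -0.29 ± 0.09 in PTZ45 (adjusted p = 0.0506), with no DESeq2 call in a single treatment. Of 12 alternatives in PTZ45, 4 made a call (edgeR, TMM size factors, 1 fit of all libraries and the GC correction, at adjusted p-values of 0.0405, 0.0390, 0.0197 and 0.0177), and in PTZ0 a call was made without CBP-ifKO PTZ0 replicate 1 (adjusted p = 0.0355). The difference from Sal to PTZ45 in Arnt2 was 0.03 ± 0.10 in controls and -0.06 ± 0.09 in CBP-ifKO mice, with no call and 95% intervals of -0.16 to 0.22 and -0.24 to 0.11.

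**Figure D2:**
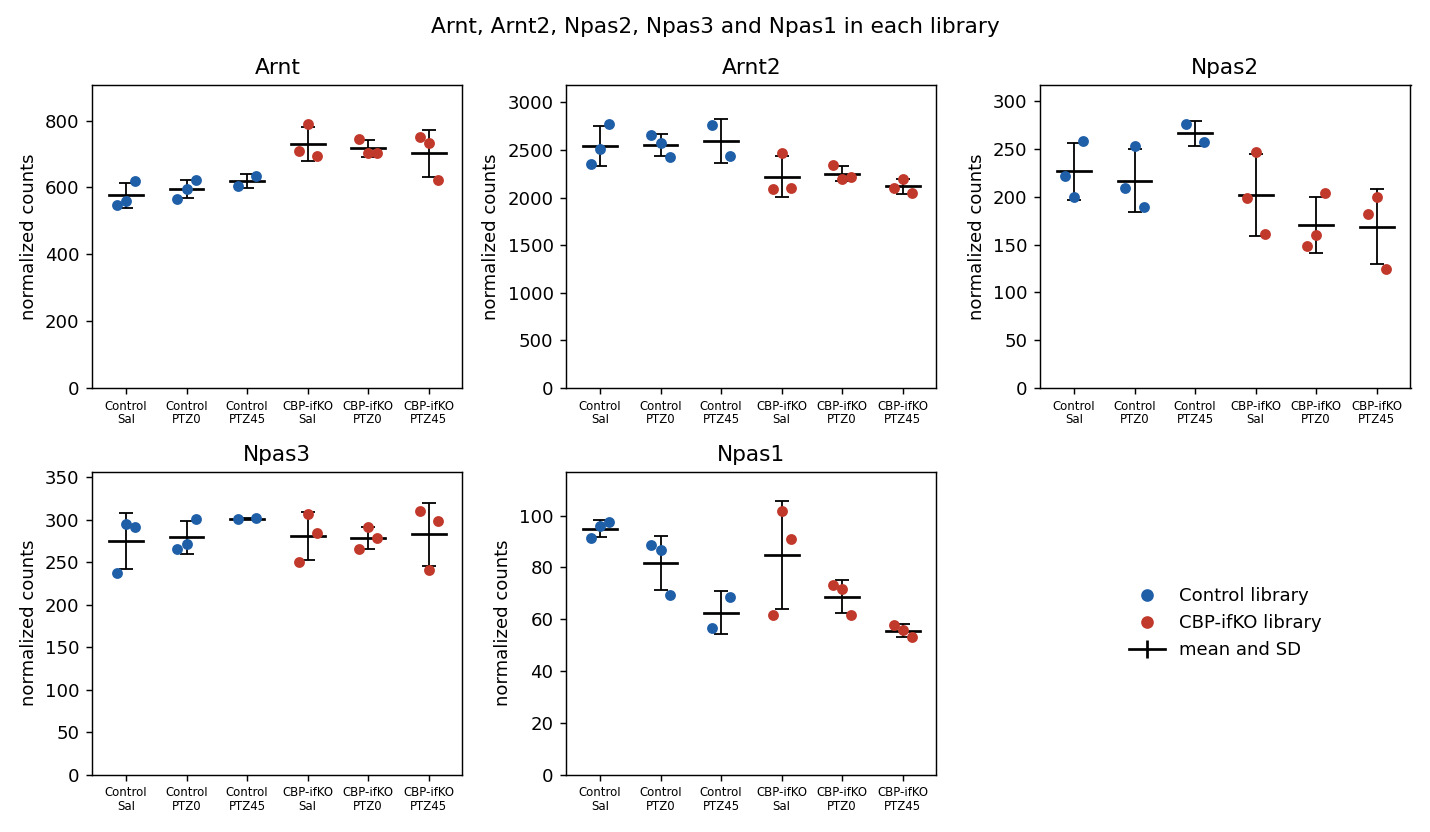
Normalized counts of Arnt, Arnt2, Npas2, Npas3 and Npas1 (linear axes from 0) in the 17 libraries. Points are libraries, blue for Control and red for CBP-ifKO, and black lines and bars are the mean and SD of each group. For Arnt, 8 of 9 CBP-ifKO libraries stand above every control library, and for Arnt2, 8 of 9 lie below.

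Npas2, the Clock paralog, was lower in CBP-ifKO mice over all treatments. It had 222.1, 199.5 and 258.6 normalized counts in Control Sal, 208.9, 253.0 and 189.5 in Control PTZ0, and 275.9 and 257.5 in Control PTZ45. In CBP-ifKO mice it had 199.2, 246.9 and 161.1 in Sal, 148.5, 160.4 and 204.2 in PTZ0, and 181.9, 199.9 and 125.0 in PTZ45. The genotypes overlapped in Sal and PTZ0 and did not overlap in PTZ45.

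Over all treatments the log2 difference of Npas2 was -0.38 ± 0.11 (adjusted p = 0.00445). It was -0.20 ± 0.17 in Sal (adjusted p = 0.803), -0.33 ± 0.17 in PTZ0 (adjusted p = 0.268) and -0.65 ± 0.20 in PTZ45 (adjusted p = 0.0467). Of 12 alternatives, 7 ended the PTZ45 call, including the omission of any 1 of the 5 libraries, with a log2 difference of -0.79 to -0.48 without 1 library and adjusted p-values between 0.0604 and 0.750. The interaction of genotype and PTZ45 over Sal was -0.46 ± 0.26 (adjusted p = 1), so the genotype difference in Npas2 was not shown to depend on treatment.

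DESeq2 called Npas1 and Npas3 in none of the 12 comparisons, and edgeR called Npas1 in 1 of them. Npas1, the interneuron repressor, had 91.2, 96.0 and 97.6 normalized counts in Control Sal, 88.7, 86.7 and 69.5 in Control PTZ0, and 56.6 and 68.4 in Control PTZ45. In CBP-ifKO mice it had 61.5, 101.7 and 90.9 in Sal, 73.0, 71.6 and 61.5 in PTZ0, and 57.8, 56.0 and 53.1 in PTZ45. In both genotypes, every PTZ45 library lay below every Sal and PTZ0 library.

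The log2 change of Npas1 from Sal to PTZ45 was -0.61 ± 0.26 in controls (unadjusted p = 0.0197, adjusted p = 0.462) and -0.58 ± 0.27 in CBP-ifKO mice (unadjusted p = 0.0328, adjusted p = 1). edgeR called the former (adjusted p = 0.0491). The interaction was 0.04 ± 0.35, with a 95% interval of -0.65 to 0.73. DESeq2 and edgeR called 0 of 7 interneuron markers in each comparison of treatments, with a lowest DESeq2 adjusted p of 0.589. DESeq2 called 0.00843% to 1.25% of genes tested there, so a count of 0 does not set these markers apart. Of the 7, 1, Gad2 in Control PTZ45 over PTZ0, had an unadjusted p under 0.05, beside 1561 genes in the whole table. The part of interneurons in the values of Npas1 was not tested. Npas1 has an exonic GC content of 62.5%, against a median of 49.0% for genes whose mean reached 50 normalized counts.

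Npas3 lay between 236.9 and 310.2 normalized counts in all 17 libraries, and the ranges of the genotypes overlapped. Over all treatments its log2 difference was -0.02 ± 0.07 (adjusted p = 0.870, 95% interval -0.15 to 0.11). Its change from Sal to PTZ45 was 0.14 ± 0.16 in controls and 0.02 ± 0.15 in CBP-ifKO mice.

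DESeq2 comparisons of the genotypes called 0 of 6 genes in Sal (2.04% of genes tested were called), 1 of 5 in PTZ0 (Arnt, against 6.68%) and 2 of 6 in PTZ45 (Npas4 and Npas2, against 3.07%). At an unadjusted p under 0.05 the counts were 2 in Sal (Arnt and Arnt2), 4 in PTZ0 and 3 in PTZ45, and edgeR called 1 in Sal (Arnt, against 2.31% of genes tested), 2 in PTZ0 (Npas4 and Arnt, against 4.03%) and 3 in PTZ45 (Npas4, Npas2 and Arnt2, against 2.79%). Over all treatments 4 of 6 were called, Npas4, Npas2 and Arnt2 lower and Arnt higher, against 19.3% of genes tested. The overall difference of Npas4 was -1.81 ± 0.52 (adjusted p = 0.00485), an average over treatments in which its differences were unequal. The plot of fold changes sets these values side by side.

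**Figure D3:**
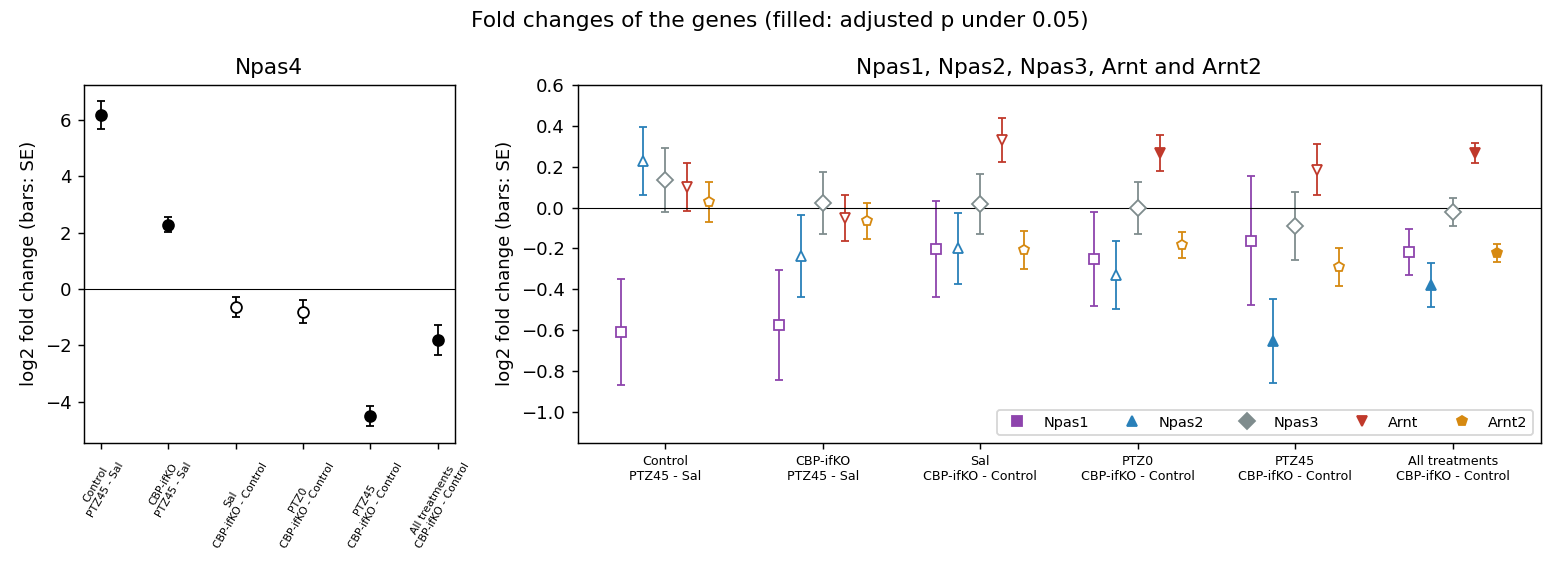
Log2 fold changes of Npas4 (left) and of Npas1, Npas2, Npas3, Arnt and Arnt2 (right) in 6 comparisons, with their standard errors as bars. Filled symbols had an adjusted p under 0.05. The axes differ, since Npas4 spans -4.51 to 6.16 and the others -0.65 to 0.33.

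The genotype differences run along the lanes, since lane 3 held controls and lane 5 held CBP-ifKO mice only. With lane as a term, an alternative chosen after seeing the data, the log2 difference was 0.25 ± 0.16 for Arnt (adjusted p = 0.926), -0.32 ± 0.14 for Arnt2 (adjusted p = 0.581) and -0.52 for Npas2 (adjusted p = 0.906), with the same directions and wider errors. In that fit 135 genes were called in the whole table, against 3606 without the term. Npas4 had -4.35 ± 0.81 with the term (adjusted p = 3.36e-05). That fit held no interaction, and only lane 4 held both genotypes, under different treatments. The unequal rise of Npas4 therefore entered its genotype value, which does not show that the call withstands lane. Its difference over all treatments ran from -4.35 to -0.72 over all alternatives. In lane 4, which held both genotypes under different treatments, Arnt was 604.9 and 634.5 in controls and 693.2 to 788.5 in CBP-ifKO mice, with no overlap. Arnt2 in that lane was 2435 and 2758 against 2093 to 2465, with overlap. Genotype and treatment cannot be told apart within that lane. Without the 5 libraries rich in choroid plexus markers, the overall call of Npas4 was lost (-1.80, adjusted p = 0.0616), and those of Arnt, Arnt2 and Npas2 were kept.

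Some cell type markers also differed between the genotypes over all treatments. Of 8 excitatory neuron markers, 5 were called against 19.3% of genes tested, with Prox1 higher and C1ql2, Wfs1, Fibcd1 and Grik4 lower, and the list summed to 29810 to 38535 normalized counts in controls and 33340 to 42898 in CBP-ifKO mice. Of 7 interneuron markers, Gad1 and Sst were lower, and the list summed to 6579 to 6930 in controls and 5898 to 6608 in CBP-ifKO mice. Of 5 astrocyte markers, Slc1a3 and Gja1 were lower, the call of Gja1 being lost in 19 of 27 alternatives, edgeR included, and of 5 oligodendrocyte lineage markers 1, Pdgfra, was lower. Of the oligodendrocyte markers edgeR called 3 (Mbp, Mag and Pdgfra), against 9.54% of genes tested. The same 3 had an unadjusted p under 0.05 in DESeq2, beside 5949 genes in the whole table. edgeR called 6 excitatory neuron markers, adding Camk2a, the same 2 interneuron markers, and Slc1a3 and Gfap among the astrocyte markers. The astrocyte list summed to 14220 to 15669 in controls and 12652 to 15475 in CBP-ifKO mice, and the oligodendrocyte list to 23684 to 30849 and 22261 to 30337. DESeq2 and edgeR called 0 of 5 microglia and 0 of 4 endothelial markers, none of which had an unadjusted p under 0.05. Of 4 choroid plexus markers DESeq2 tested 1, Kl, and did not call it, whereas edgeR called all 4. With lane as a term the calls of C1ql2 and Wfs1 were kept and those of the other 8 markers were lost, with Prox1 at 0.08 against 0.26 without that term. The part of all these markers in the differences of Arnt, Arnt2 and Npas2 was not tested.

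Levels of the genes were compared with each other as normalized counts per kb of exon. In Control Sal, Arnt2 was the most abundant at 331 ± 27.4 per kb (SD, n = 3), followed by Arnt at 71.9, Npas2 at 47.3, Npas3 at 45.7, Npas1 at 31.6 and Npas4 at 12.3. Npas2 and Npas3 overlapped, and all other neighbours in this order were apart. In Control PTZ45, Npas4 came first at 875 ± 112 per kb (n = 2), above Arnt2 at 338, with the other 4 in the same order. In CBP-ifKO PTZ45, Npas4 had 38.3 per kb and lay between Npas3 and Npas2, and overlapped with both.

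The ratio of Npas4 to Arnt2 per kb was 0.036 ± 0.014 in Control Sal and 0.036 ± 0.013 in Control PTZ0. In the 2 Control PTZ45 libraries it was 2.66 and 2.51. It was 0.027 ± 0.003 in CBP-ifKO Sal and 0.023 ± 0.012 in CBP-ifKO PTZ0, and 0.097, 0.130 and 0.193 in the 3 CBP-ifKO PTZ45 libraries. Npas4 transcripts therefore outnumbered those of Arnt2 per kb in the 2 Control PTZ45 libraries and in no other. Relative to Arnt and Arnt2 summed, the mean was 2.10 in Control PTZ45 and 0.107 in CBP-ifKO PTZ45. Transcript ratios of this kind say nothing of protein levels, which were not measured here.

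The ratio of Arnt2 to Arnt per kb was 4.50 ± 0.32 in controls (SD, n = 8, range 3.996 to 4.89) and 3.19 ± 0.15 in CBP-ifKO mice (n = 9, range 2.92 to 3.43). The genotypes did not overlap. Within controls the group means were 4.60 in Sal, 4.48 in PTZ0 and 4.37 in PTZ45, and within CBP-ifKO mice they were 3.16, 3.27 and 3.16. With the longest transcript in place of all exons, the ratio was 3.00 in controls and 2.13 in CBP-ifKO mice, again without overlap. This ratio does not depend on the scaling between libraries, and since it was formed from 2 genes already described, it is given with no test.

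**Figure D4:**
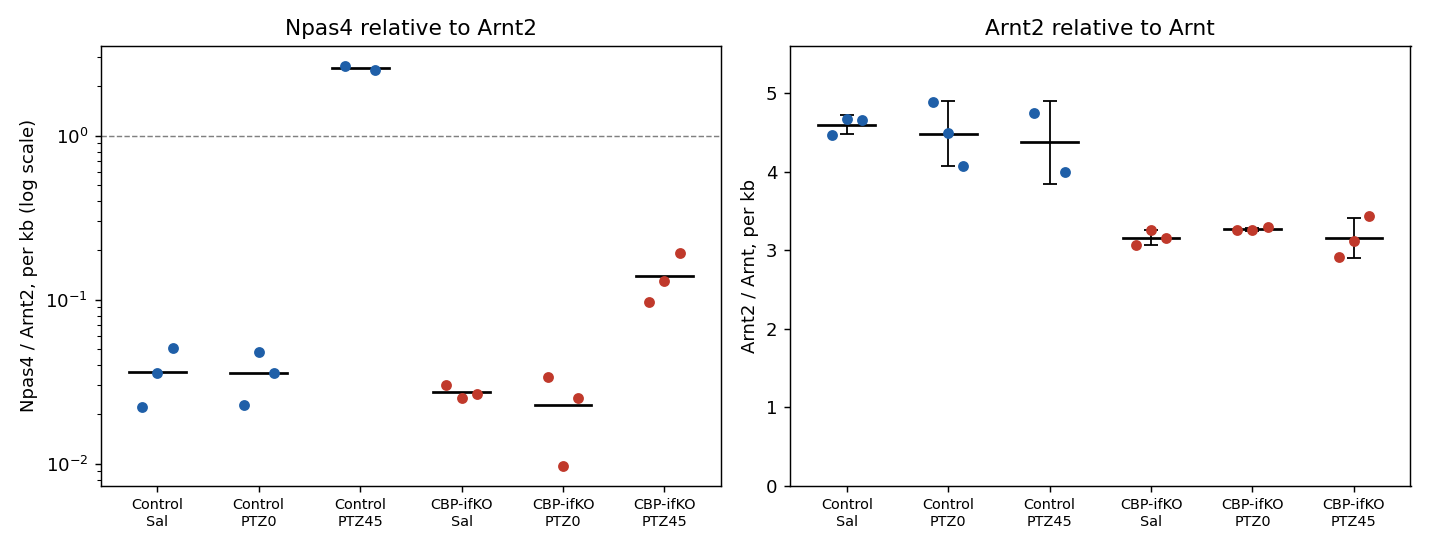
Ratios of normalized counts per kb of exon in each library, Npas4 to Arnt2 on a log axis (left, dashed line at 1) and Arnt2 to Arnt on a linear axis from 0 (right). Points are libraries, horizontal lines are group means and bars on the right are SDs. Npas4 exceeds Arnt2 in the 2 Control PTZ45 libraries only, and the Arnt2 to Arnt ratio is above 3.9 in every control library and below 3.5 in every CBP-ifKO library.

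Genes whose pattern was most like that of Npas4 were sought by Pearson correlation of log2(normalized count + 1) over the 17 libraries, over 13037 genes whose mean reached 50 normalized counts. The 5 closest were the antiproliferative gene Btg2 (r = 0.969), the synaptic immediate early gene Arc (0.968), Gm47075 (0.968), the transcription factor gene Fos (0.966) and C630044B11Rik (0.965). Fos rose from a mean of 39.6 normalized counts in Control Sal to 2699 in Control PTZ45, and its mean in CBP-ifKO PTZ45 was 234. The 17 points share groups and lanes. Without the 2 Control PTZ45 libraries, the coefficient with Npas4 was 0.893 for Fos, 0.822 for Btg2 and 0.815 for Arc, and the closest gene was Hspb11 (0.938), whose coefficient over the 17 libraries was 0.316. By rank correlation the closest were Gm47088 and Egr1. The other members of the family were far from Npas4, with coefficients between -0.44 (Npas1) and 0.39 (Npas2).

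Genes described elsewhere as Npas4 targets in neurons rose in part with acute PTZ in controls. Of 6 such genes, DESeq2 called 2 over Sal, where 1.17% of genes tested were called. These were Nptx2, a pentraxin secreted at excitatory synapses (0.90 ± 0.21, adjusted p = 0.00376), and Plk2, a kinase of homeostatic plasticity (0.84 ± 0.07, adjusted p = 1.16e-26). DESeq2 called the same 2 over PTZ0 (0.69 ± 0.20 and 0.81 ± 0.07), against 1.25% of genes tested. At an unadjusted p under 0.05 the count was 4 of 6 over both (Bdnf, Nptx2, Plk2 and Csrnp1), and edgeR called these 4 over Sal (against 1.73% of genes tested) and 3 of them, without Bdnf, over PTZ0 (against 2.22%). The median log2 change of the 6 over Sal was 0.51, against 0.01 for all genes tested. Nptx2 lost its call in 5 of 12 alternatives over Sal and 7 of 12 over PTZ0, with log2 changes of 0.66 over Sal and 0.45 over PTZ0 without Control PTZ45 replicate 1 (no adjusted p was set for the latter), and Plk2 kept its call in all.

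In CBP-ifKO mice DESeq2 and edgeR called 0 of the 6 target genes for PTZ45 over Sal or over PTZ0, where DESeq2 called 0.294% and 0.0872% of genes tested, so a count of 0 of 6 does not set these genes apart. The count at an unadjusted p under 0.05 was 0 over Sal and 1, Plk2, over PTZ0, beside 877 and 559 genes in the whole table. Plk2 had means of 3490, 3557 and 6242 normalized counts in Control Sal, PTZ0 and PTZ45, and of 3134, 2977 and 3424 in the same treatments of CBP-ifKO mice. Its interaction was -0.71 ± 0.13 over Sal (adjusted p = 1.13e-05) and -0.61 ± 0.11 over PTZ0 (adjusted p = 9.56e-06), and no other gene of the list was called in either.

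Between genotypes, Bdnf, the neurotrophin, and Nptx2 were lower in CBP-ifKO mice in all 3 treatments, also without acute PTZ. The log2 difference of Bdnf was -0.73 in Sal, -0.86 in PTZ0 and -0.88 in PTZ45, and that of Nptx2 was -1.05, -1.29 and -1.58. Plk2 was lower in PTZ0 (-0.26 ± 0.07) and PTZ45 (-0.86 ± 0.08). The Sal call of Nptx2 was lost in 4 of 13 alternatives (adjusted p up to 0.132) and the PTZ0 call of Plk2 in 3 of 13 (up to 0.184). Over all treatments 5 of 6 were lower, against 19.3% of genes tested called in either direction, among them Syt10 (-0.47 ± 0.10) and Csrnp1 (-0.53 ± 0.12), and Mdm2 was not called. With lane as a term the calls of Syt10 (-0.87) and Csrnp1 (-0.92) were lost.

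Regulators upstream of Npas4 were listed as 10 genes, among them L-type calcium channel subunits, CREB and its coactivators, serum response factor and the MEF2 family. DESeq2 and edgeR called 0 of 10 for PTZ45 over Sal or PTZ0 in either genotype, a count that does not set them apart from the 0.0872% to 1.25% of genes tested in DESeq2. In each control comparison 2 genes and in each CBP-ifKO comparison 0 had an unadjusted p under 0.05. The whole table held 1412 such genes over Sal and 1561 over PTZ0 in controls, and 877 and 559 in CBP-ifKO mice. Between genotypes over all treatments, Crebbp (-0.84 ± 0.06) and Srf (-0.31 ± 0.09) were lower and Ep300, the paralog of Crebbp, was higher (0.25 ± 0.08), 3 of 10 called against 19.3% of genes tested. edgeR called 6 against 9.54%, with Cacna1d, Mef2c and Mef2d in addition. The overall calls of Srf and Ep300 were lost in 3 and 2 of 27 alternatives, among them lane as a term. Srf was also lower in PTZ45 (-0.54 ± 0.17, adjusted p = 0.0455) and Ep300 higher in PTZ0 (0.29 ± 0.09, adjusted p = 0.0149), and these calls were lost in 8 of 12 and 7 of 13 alternatives.

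The 13 other bHLH-PAS genes, which include Hif1a, Epas1, Ahr, Clock and the steroid receptor coactivators, had 0 calls in DESeq2 in each comparison of treatments, each interaction and each genotype comparison within a treatment, against 0.00843% to 6.68% of genes tested. In these comparisons 0 to 2 of the 13 had an unadjusted p under 0.05, beside 120 to 2520 genes in the whole table. edgeR called Hif3a, a hypoxia factor gene, for PTZ45 over Sal in both genotypes, against 1.73% of genes tested in controls and 0.611% in CBP-ifKO mice. Between genotypes it called Arntl2 in Sal (against 2.31%), and Arntl2 and Ahrr in PTZ0 (against 4.03%). Over all treatments, the dioxin receptor gene Ahr (-0.21 ± 0.07) and Arntl, which encodes the partner of Clock and Npas2 (-0.23 ± 0.05), were lower in CBP-ifKO mice. The repressor gene Ahrr (0.63 ± 0.18) and Arntl2, the paralog of Arntl (0.34 ± 0.08), were higher, so that 4 of the 11 tested were called against 19.3% of genes tested. With lane as a term none of the 4 kept its call, and the difference of Ahrr was 0.06 ± 0.61 (DESeq2 adjusted p = 0.9997). The call of Ahr was also lost with edgeR and without the choroid plexus rich libraries. The median over the list was -0.01, against 0.01 for all genes tested.

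In a list drawn up around the NuA4 acetyltransferase, a complex described as a partner of Npas4, Trrap, the scaffold of the complex, was higher in CBP-ifKO mice in PTZ0 (0.30 ± 0.08, adjusted p = 0.0065), a call lost in 4 of 13 alternatives. It was 1 of 22 genes called there, against 6.68% of genes tested, a count that does not set the list apart. Over all treatments 2 of the 22 genes in the list were called by DESeq2, against 19.3% of genes tested, and 4 by edgeR, against 9.54%. The subunit gene Yeats4 was higher (0.22 ± 0.08), a call lost in 9 of 27 alternatives, 6 of them the omission of 1 library. Meaf6 was lower (-0.15 ± 0.04), a call lost in 2 of 27, and with lane as a term its difference was 0.02 ± 0.14, with the opposite sign.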

How the data were processed

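The study sequenced hippocampal total RNA (single-end reads) and counted reads per gene. According to its methods, the authors trimmed with Trim Galore 0.6.4, aligned with STAR 2.6.1 to build GRCm38 (mm10), kept reads with a mapping quality above 10 and counted them with Rsubread. The values used were raw counts, deposited by the authors as whole numbers per gene and not normalized. Of 18 count columns, 17 matched a sample by name, and 1 did not and was not used. By its name it resembles the Control PTZ45 columns, of which 2 have a sample in the labels.

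Tests were two-sided Wald tests in DESeq2 1.42.0 (R 4.3.3), the test of the study, fitted on all genes with counts and adjusted by Benjamini-Hochberg over all genes tested. A gene was called at an adjusted p under 0.05. Pairs of groups were fitted alone, interactions on 4 groups and genotype over all treatments on 17 libraries with treatment as a term. Errors are standard errors of log2 fold changes or SDs, and each mouse was a replicate. Normalized counts used 1 set of size factors over the 17 libraries, and levels per kb used the exonic length in the deposited table. Fits were tested on simulated counts.

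Alternatives were edgeR 4.0.16 (quasi-likelihood), its TMM factors, a filter of 10 counts in 2 libraries, 1 fit of all libraries, 1 surrogate variable (sva 3.50.0), a replicate block, a GC correction and leaving out each library. Lane as a term, Sal and PTZ0 alone, and omission of libraries rich in choroid plexus markers were added after seeing the data. The 6 genes were named in each comparison, genes of 4 lists where called (at most 6 per list and comparison), with the 5 closest to Npas4. Gad2, Hif3a, Cacna1d, Mef2c, Mef2d and other genes given for edgeR or unadjusted p-values alone, Gm47088, Egr1, Hspb11, Mdm2 and the cell type markers were named after their values were seen. One gene of the lists is not reported here. The genes and the lists were chosen with earlier results of these data known. Counting error and depth limit Npas4 most, with 12 to 84 reads in the Sal and PTZ0 libraries.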

Additional observations from a re-analysis of the deposited data

Results flagged for a closer look

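The rise of Npas4 with acute PTZ differed between the genotypes. The interaction of genotype and PTZ45 was -3.88 over Sal and -3.71 over PTZ0, and the 2 values share the PTZ45 libraries.

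The rise of Plk2, one of the genes described as Npas4 targets, also differed between the genotypes. Its interaction was -0.71 over Sal and -0.61 over PTZ0, in the same libraries. No explanation of these differences was tested. Groups of 2 and 3 libraries are too small for a test of single libraries that stand apart, and each library was instead left out in turn.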

How the results depend on the processing

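No log2 difference larger than its standard error changed direction under any alternative for the 6 genes. Npas4 kept its calls in both genotypes over Sal, in controls over PTZ0, between genotypes after PTZ45 and in both interactions. The following calls were lost or gained. For Npas4 in CBP-ifKO PTZ45 over PTZ0, called at 2.51, the call was lost with 1 surrogate variable (2.51) and with the replicate block (2.63), and leaving out 1 library gave 2.15 to 2.90. For Npas4 between genotypes in PTZ0, edgeR made a call (-0.78). Calls were gained for Npas1 in controls over Sal with edgeR (-0.63), for Arnt in Sal with edgeR and 1 fit of all libraries (both 0.33) and without 1 library (0.36), for Arnt2 in PTZ45 with edgeR, TMM and the GC correction (each -0.31) and 1 fit of all libraries (-0.30), and for Arnt2 in PTZ0 without 1 library (-0.21). For Arnt in PTZ0, the call was lost with the low count filter, 1 fit of all libraries, 1 surrogate variable and the replicate block (each 0.27), and leaving out 1 library gave 0.23 to 0.30. For Npas2 in PTZ45, it was lost with 1 surrogate variable (-0.46) and the replicate block (-0.48), and leaving out 1 library gave -0.79 to -0.48. For genotype over all treatments, lane as a term ended the calls of Arnt (0.25), Arnt2 (-0.32) and Npas2 (-0.52), the Sal and PTZ0 libraries alone those of Npas4 (-0.72) and Npas2 (-0.27), and omission of the choroid plexus rich libraries that of Npas4 (-1.80), with fewer libraries in the latter fits. Otherwise the cause was not tested. Replicate numbers did not pair the samples, since deviations of 40 same-number pairs correlated by -0.52 to 0.53 (median -0.06).

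The number of genes called in the whole table moved with the tool. In the order controls and CBP-ifKO mice over Sal, then both over PTZ0, it was 204, 58, 225 and 23 with DESeq2, 607, 218, 773 and 101 with edgeR, and at the lowest 73, 16, 94 and 8. For PTZ0 over Sal it was 3 and 4, with ranges of 0 to 85 and 0 to 21. Between genotypes in Sal, PTZ0 and PTZ45 it was 306, 852 and 468, with ranges of 122 to 828, 327 to 1428 and 102 to 972. The interactions over Sal and PTZ0 had 69 and 82, with ranges of 38 to 121 and 50 to 185, and genotype over all treatments 3606, with 3101 to 3795 in the alternatives planned, 2535 with the Sal and PTZ0 libraries alone, 1870 without the choroid plexus rich libraries and 135 with lane as a term.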
